A study of Mus musculus with 6 samples.

Results

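Astrocytes were followed through 9 genes that mark them in the brain: Gfap, Aqp4, Slc1a2, Slc1a3, Aldoc, Gja1, Glul, Clu and Acsbg1. Members were all probe sets that the platform annotation ties to exactly 1 of these symbols, which gave 23 of the 22690 probe sets on the array for 9 of its 12393 genes with a symbol. The arrays held hippocampal RNA of male mice aged 2 months on a C57BL/6J background: 3 arrays labelled Rsk2-KO, from mice lacking the kinase RSK2, and 3 labelled WT, from normal littermates. Each array held a pool of 2 hippocampi, and whether pools had animals in common is not in the labels. The p-values cover the spread between these pools and no more. The question of the study was which molecular pathways differ in the knockout hippocampus.

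Astrocytes buffer the surroundings of neurons. They take up glutamate through the transporters encoded by Slc1a2 and Slc1a3, turn it into glutamine with the enzyme encoded by Glul, pass ions and metabolites to one another through connexin channels, and meet blood vessels with endfeet rich in the water channel encoded by Aqp4. Gfap encodes the intermediate filament whose rise is the usual sign of reactive astrocytes, and in the hippocampus the same cells line the excitatory synapses. RSK2 is activated by ERK and phosphorylates transcription factors, CREB and c-Fos among them, which bind CRE and AP-1 sites. The arrays measured whole hippocampus, so fewer astrocytes and less RNA per astrocyte cannot be told apart.

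The promoters of 2 members are shown because Acsbg1 was the member whose groups lay furthest apart relative to its error and Gja1 the member that varied most between arrays. Both sequences are from RefSeq, build GRCm38.p6, and hold the 250 bases before the annotated start, on the strand of the gene. In Acsbg1 (chr9:54661886-54662135, minus strand) capitals mark the CCAAT box, in either orientation. In Gja1 (chr10:56377050-56377299, plus strand) capitals mark the short CRE site TGACG and the AP-1 site TGACTCA, in either orientation.
Acsbg1: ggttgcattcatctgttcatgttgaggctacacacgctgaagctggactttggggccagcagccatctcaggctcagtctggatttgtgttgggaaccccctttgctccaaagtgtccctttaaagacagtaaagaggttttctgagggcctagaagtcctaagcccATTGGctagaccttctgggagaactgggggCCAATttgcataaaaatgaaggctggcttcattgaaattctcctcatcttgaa
Gja1: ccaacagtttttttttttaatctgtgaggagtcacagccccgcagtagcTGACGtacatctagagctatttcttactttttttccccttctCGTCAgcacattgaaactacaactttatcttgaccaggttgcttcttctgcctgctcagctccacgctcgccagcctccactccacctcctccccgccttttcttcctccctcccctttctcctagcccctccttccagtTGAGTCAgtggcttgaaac
Promoters of 7 of the 9 genes were in the table, in 8 entries, and 4 motifs were searched on both strands. The full CRE, TGACGTCA, which contains that shorter site, was in 0 of these 8 entries and in 1.55% of all 32851 promoters. TGACG was in 2 of 8 entries, those of Gja1 and Slc1a3, and in 17.8% of all promoters. TGACTCA was in 1 of 8, Gja1, and in 4.46% of all. CCAAT was in 3 of 8, those of Acsbg1, Glul and Slc1a3, and in 33.8% of all. A match describes the letters and not a bound site.

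All 6 arrays had been scaled to the same trimmed mean signal, and 13579 probe sets above a mean signal of 19.2 were compared, among them all 23 of the astrocyte genes. Rps6ka3, which encodes RSK2, was not lower on Rsk2-KO arrays at either of its probe sets above this filter. Its signal at 1455206_at ran from 87.0 to 99.2 on Rsk2-KO arrays and from 59.7 to 89.2 on WT arrays. At 1427299_at it ran from 22.8 to 35.9 and from 13.0 to 31.9. A further probe set of the gene, 1452383_at, lay below the filter and was not compared. Where these probe sets lie in the gene, and what the mutation removes, were not analysed here. The labels are thus unchecked by this gene, and Rsk2-KO and WT below mean arrays labelled so. Array 3 of each label differed from the remaining 4 in a measure of RNA integrity. The ratio of 3′ to 5′ signal for Actb was 2.24 and 2.22, against 1.499 to 1.63 on the other 4 arrays, while the same ratio for Gapdh was 0.774 and 0.824, against 0.719 to 0.783. Differences are therefore also given for the number 1 and 2 arrays (2 of each label) and for the number 3 pair alone.

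No astrocyte gene passed an adjusted p of 0.05 between the labels in limma. Of the 23 probe sets, 11 were higher and 12 lower on Rsk2-KO arrays, with a median log2 difference of −0.03, against −0.02 over all 13579 probe sets, of which 47.5% were above 0. The median was 0.06 without Rsk2-KO 3 and −0.14 without WT 3. The count of probe sets called was 0 of 23 and 0 of 13579 (0% of the background). At an unadjusted p of 0.05 there was 1 of 23, against 6.9% of all probe sets, and the groups did not overlap at 2 of 23, both lower, against 13.9% of all in either direction, 7.95% lower and 5.9% higher. Both shares were below or near those of all probe sets. Without both arrays numbered 3, limma called 1.44% of all probe sets and 0 of the 23. The 95% interval of the difference lay within 2-fold in either direction at 17 of the 23 probe sets. Each of the other 6 belonged to Gja1, Aqp4 or Glul. Exact permutation of 3 arrays against 3 reaches no two-sided p under 0.1 and was not used.

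**Figure D1:**
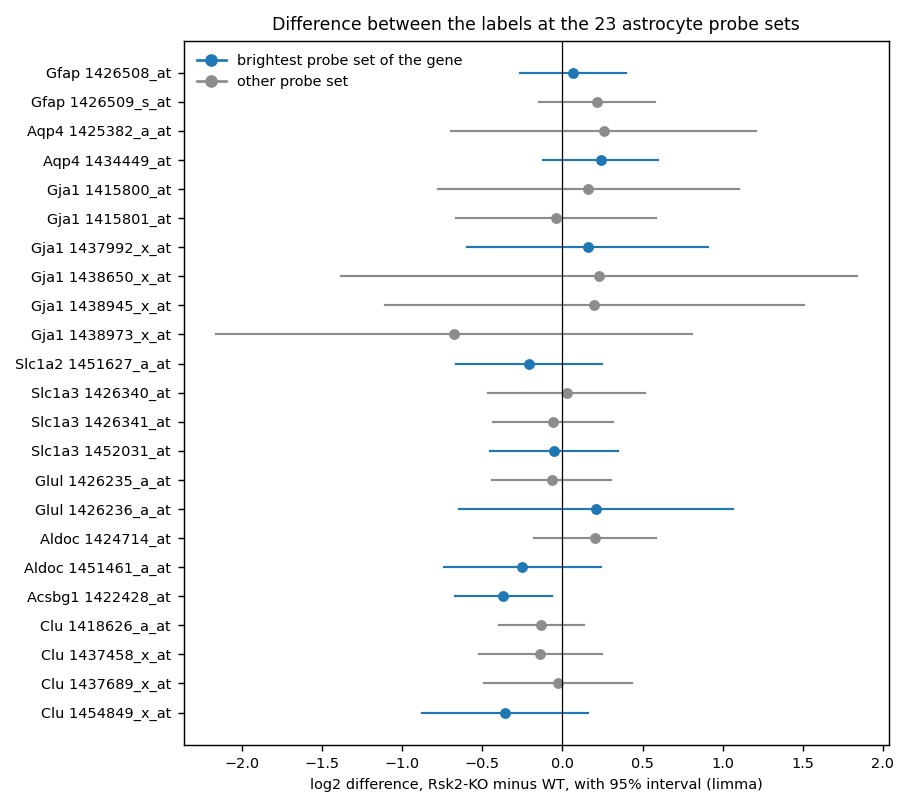
log2 difference of Rsk2-KO minus WT (horizontal axis) for each of the 23 astrocyte probe sets (rows), with points for limma estimates, bars for 95% intervals, 3 arrays per label, and blue for the brightest probe set of a gene. The interval of Acsbg1 alone lies wholly on one side of 0, before adjustment over all probe sets, and the 3 widest are of Gja1 (1438650_x_at, 1438973_x_at and 1438945_x_at).

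Among the genes of astrocyte structure, Gfap (chromosome 11, 102887336 to 102897200, build GRCm38.p6) had similar signals under both labels. At its brightest probe set, 1426508_at, the signals were 445, 352 and 403 on arrays Rsk2-KO 1, 2 and 3 and 429, 355 and 359.6 on WT 1, 2 and 3. The groups overlapped, and the lowest 3 arrays were Rsk2-KO 2, WT 2 and WT 3. The log2 difference was 0.07 (SE 0.15, 95% interval −0.26 to 0.40, adjusted p = 0.902 in limma), and it was −0.01 without Rsk2-KO 1. The second probe set, 1426509_s_at, gave 278, 211 and 287 against 204, 235 and 224. Here Rsk2-KO 1 and 3 were above every WT array and Rsk2-KO 2 was within their range (log2 difference 0.22, SE 0.16, adjusted p = 0.706, with 0.36 without Rsk2-KO 2 and 0.14 without Rsk2-KO 3). The range over the 6 arrays at 1426508_at was 1.26-fold, and 91.6% of all kept probe sets had a range at least as wide.

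Aqp4, the water channel of astrocyte endfeet, went opposite ways in the 2 sets of arrays. At 1434449_at the signals were 414, 356 and 325.5 on Rsk2-KO arrays and 298, 272 and 362 on WT arrays. Rsk2-KO was above WT on the arrays numbered 1 and 2 and below it on those numbered 3. The log2 difference was 0.43 on the number 1 and 2 arrays and −0.15 on the number 3 pair, and 0.24 over all 6 (SE 0.16, adjusted p = 0.691 in limma). Omitting Rsk2-KO 1 gave 0.14 and omitting WT 2 gave 0.15. At 1425382_a_at the signals were 175, 113 and 179 against 111, 70.9 and 262, with log2 differences of 0.66 and −0.55 in the same order. That probe set gave 0.26 over all arrays (SE 0.42) and −0.16 without WT 2. An interaction of label with array number (3 against 1 and 2), added after seeing the data, gave −0.59 (SE 0.23, adjusted p = 0.432) and −1.21 (SE 0.45, adjusted p = 0.421). It rests on 1 array per label on one side, assumed to vary like the others, and neither probe set passed.

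Gja1 (chromosome 10, 56377300 to 56390419) encodes connexin 43, which forms the main gap junctions between astrocytes, and its 6 probe sets varied more between array numbers than between labels. At the brightest, 1437992_x_at, the signals were 1009.6, 1055 and 505 on Rsk2-KO 1, 2 and 3 and 916, 895 and 474 on WT 1, 2 and 3. The groups overlapped, and the low array in each was number 3. The log2 difference between the labels was 0.16 (SE 0.33, adjusted p = 0.899). It was 0.19 on the number 1 and 2 arrays and 0.09 on the number 3 pair. At 1438650_x_at the arrays numbered 3 were furthest below the others, with 380.03, 456 and 94.3 against 355, 376 and 76.2. At 1438945_x_at the signals were 633, 555 and 187 against 530.02, 562 and 147. These 2 had log2 differences of 0.23 (SE 0.71) and 0.20 (SE 0.58) between the labels, with the widest errors among the brighter Gja1 probe sets. Those of 1415800_at and 1415801_at were 0.16 (SE 0.41) and −0.04 (SE 0.28). The sign of the difference changed at 4 of the 6 probe sets when WT 3 was left out. At 1437992_x_at it became −0.15, and it was 0.50 without Rsk2-KO 3. The dimmest, 1438973_x_at, did not share this pattern, with 6.69, 29.8 and 56.1 against 44.7, 30.3 and 34.0, and its lowest value lay below the filter of 19.2.

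**Figure D2:**
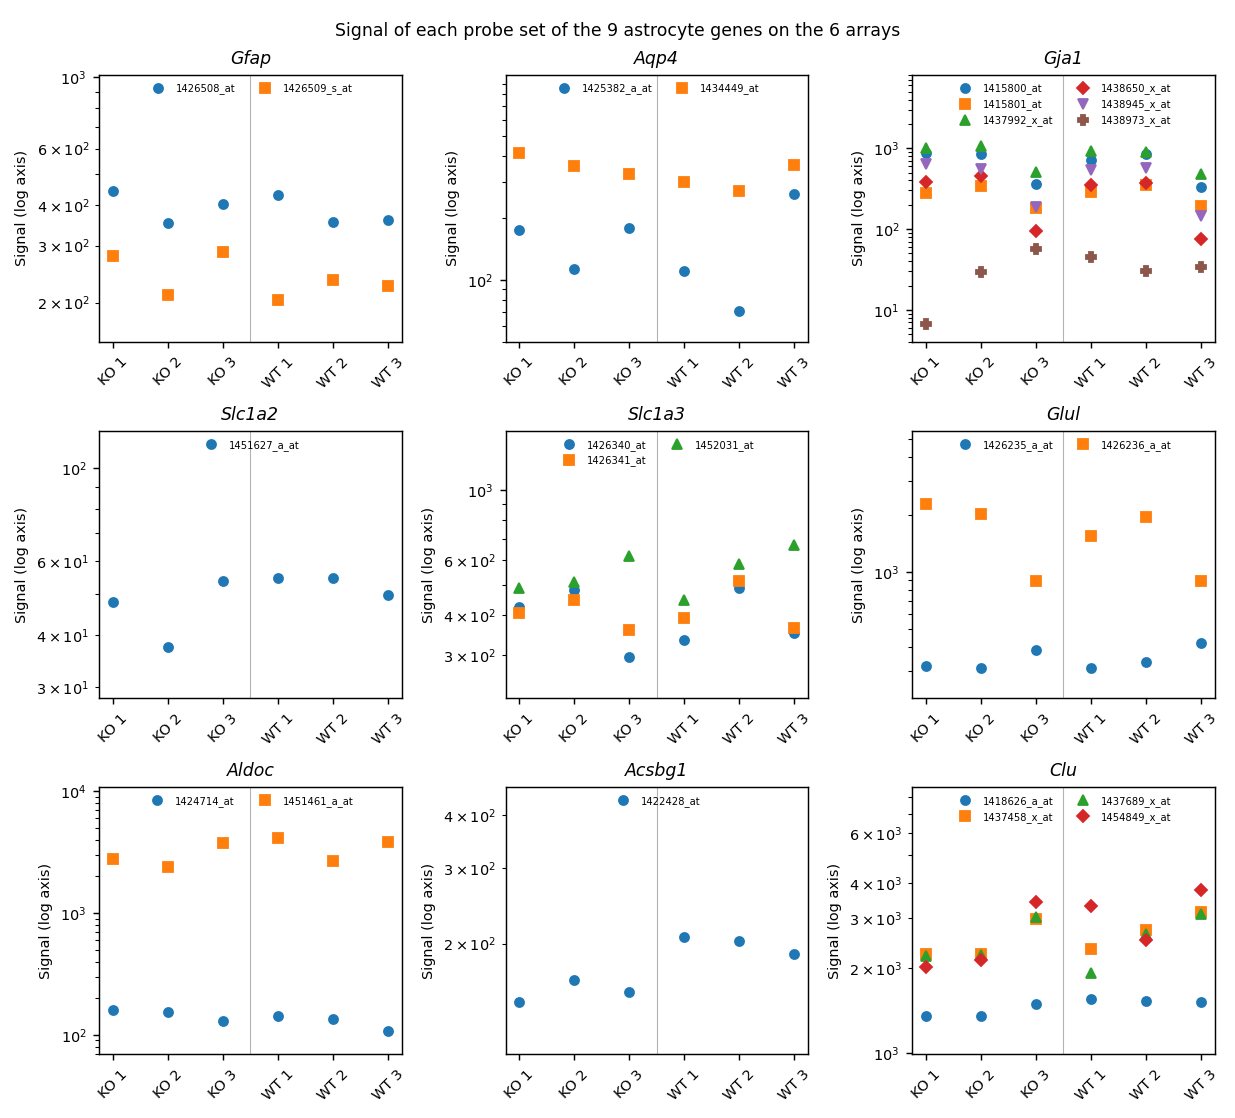
Signal (log axis) of each probe set of the 9 genes on each array (horizontal axis, KO for Rsk2-KO), 1 panel per gene and 1 colour and marker per probe set. Of the 6 Gja1 probe sets 5, and the brighter Glul probe set, are lowest on array 3 of both labels, whereas Acsbg1 is lower on each of the 3 Rsk2-KO arrays (146 to 164) than on any WT array (189 to 208).

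Neither gene of glutamate uptake passed the test between the labels. Slc1a3 (chromosome 15, 8634124 to 8710807) encodes the transporter GLAST. At 1452031_at its signals were 490.5, 512 and 619 on Rsk2-KO arrays and 447, 580.4 and 671 on WT arrays. The highest array under each label was number 3, and the groups overlapped. The log2 difference was −0.05 (SE 0.18, 95% interval −0.45 to 0.34, adjusted p = 0.943), and those of 1426341_at and 1426340_at were −0.06 (SE 0.17) and 0.03 (SE 0.22). Leaving out 1 array changed the sign at each of these 3 probe sets. The signals of 1426340_at were 426, 482 and 296 against 334, 489.6 and 352, and those of 1426341_at were 406, 447 and 359.9 against 393, 515 and 364. At these 2 the arrays numbered 3 were not the highest but among the lowest.

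Slc1a2 (chromosome 2, 102658239 to 102790784) encodes GLT-1, the main glutamate transporter of the forebrain, and had 1 probe set, 1451627_a_at. Its signals were 47.8, 37.4 and 53.9 on Rsk2-KO arrays and 54.7, 54.7 and 49.8 on WT arrays. This was dim, at a mean of 49.7 against 553 for Slc1a3 1452031_at, and how well the probe set reports the transcript was not tested. Rsk2-KO 2 was the lowest array, and Rsk2-KO 3 lay within the WT range. The log2 difference was −0.21 (SE 0.20, adjusted p = 0.756), with −0.37 on the number 1 and 2 arrays and 0.11 on the number 3 pair. Omitting Rsk2-KO 2 gave −0.0636 and omitting Rsk2-KO 3 gave −0.33, and an offset of 64 gave −0.0879.

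Glul (chromosome 1, 153899929 to 153909723) encodes glutamine synthetase, and its 2 probe sets disagreed. At 1426236_a_at the signals were 2272, 2012.5 and 892 on Rsk2-KO 1, 2 and 3 and 1535, 1935 and 892 on WT 1, 2 and 3. The arrays numbered 3 were the lowest under both labels and almost equal. The log2 difference was 0.21 (SE 0.38, adjusted p = 0.881), with 0.31 on the number 1 and 2 arrays and 0.00081 on the number 3 pair. Omitting Rsk2-KO 1 gave −0.05 and omitting WT 3 gave −0.11. At 1426235_a_at the signals were 317, 311 and 388 against 309.7, 336 and 424. Here the arrays numbered 3 were the highest under both labels (log2 difference between labels −0.07, SE 0.16, and 0.06 without WT 3).

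Of the 2 metabolic enzymes, Acsbg1 (chromosome 9, 54604886 to 54661885), which activates long-chain fatty acids and is enriched in astrocytes, had the smallest p among the 23 probe sets. At its only probe set, 1422428_at, the signals were 146, 164 and 154 on Rsk2-KO arrays and 208, 203 and 189 on WT arrays. Every Rsk2-KO array was below every WT array. The means were 155 ± 9.27 and 199.9 ± 9.93 (SD, n = 3 each), giving a log2 difference of −0.37 (SE 0.13, 95% interval −0.67 to −0.07), or 1.29-fold lower, with an unadjusted p of 0.0222 in limma and an adjusted p of 0.661. It therefore did not pass over all probe sets. Because the groups did not overlap, no pairing of arrays and no omission of 1 array could change the sign, which is therefore no further support. The difference was −0.51, −0.31 and −0.29 for arrays numbered 1, 2 and 3, and ran from −0.33 to −0.41 with 1 array left out. With array weights it was −0.41 (adjusted p = 0.0908), the lowest adjusted p of a member in that fit, which called 0 of 23 probe sets. Summed signals of the 11 microglia markers (3 higher and 8 lower) were also lower on every Rsk2-KO array (1537 to 1640, against 1720 to 1779), and their part in this difference was not tested. Taken singly, 2 of the 11 did not overlap between the labels, both lower, against 14.2% of all genes in either direction. Such a sum weighs bright genes most, and Csf1r, the brightest (mean 575 against 643), overlapped. Sums of the 9 astrocyte genes overlapped between the labels (9011 to 10150, against 9478 to 11320). Those of the wider astrocyte list given below overlapped too (20600 to 25390, against 23980 to 27020).

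Aldoc (chromosome 11, 78323073 to 78327781) encodes the brain form of the glycolytic enzyme aldolase. At 1451461_a_at its signals were 2774, 2381 and 3774 on Rsk2-KO arrays and 4118, 2679 and 3813.5 on WT arrays. The groups overlapped widely, with array 2 the lowest in each (log2 difference −0.25, SE 0.22, adjusted p = 0.735). Omitting Rsk2-KO 2 gave −0.10, omitting WT 1 gave −0.13, and omitting either Rsk2-KO 3 or WT 2 gave −0.44. The difference was −0.42 with array weights and −0.13 after quantile normalization. The difference was −0.37 on the number 1 and 2 arrays and −0.01 on the number 3 pair. The dimmer 1424714_at had the opposite sign, with 159, 153 and 129.6 against 142, 135 and 108. There, the Rsk2-KO array was above the WT array of each number, though the titles do not say that the numbers pair arrays. The groups overlapped (0.20, SE 0.17, adjusted p = 0.724 in limma, and 0.0803 without WT 3).

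Clu (chromosome 14, 65968483 to 65981548) encodes clusterin, a secreted chaperone and lipid carrier of astrocytes, and its 4 probe sets were all slightly lower. At the brightest, 1454849_x_at, the signals were 2019, 2141 and 3421 on Rsk2-KO arrays and 3314, 2503 and 3763 on WT arrays. The array numbered 3 was the highest in each group, and the groups overlapped. The log2 difference was −0.36 (SE 0.23, adjusted p = 0.686), −0.22 without Rsk2-KO 1, −0.23 without WT 3 and −0.60 without Rsk2-KO 3. At 1418626_a_at the 6 arrays lay close together, at 1357, 1358 and 1494 against 1557, 1537 and 1514. Every Rsk2-KO array was below every WT array there, with a log2 difference of −0.13 (SE 0.12, adjusted p = 0.739), or −0.07 after quantile normalization. The probe sets 1437458_x_at and 1437689_x_at differed by −0.14 (SE 0.17) and −0.03 (SE 0.20). At 1437458_x_at the difference was −0.0338 after quantile normalization, and with 1 array left out it ran from −0.27 without Rsk2-KO 3 to −0.0312 without WT 3. Omitting Rsk2-KO 1 gave −0.0709, omitting Rsk2-KO 2 gave −0.0664 and omitting WT 1 gave −0.25. The sign at 1437689_x_at changed to 0.08 after quantile normalization and to 0.02 with array weights.

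Signals of the astrocyte genes moved with the array number in a way that differed between genes and between probe sets of 1 gene. On both arrays numbered 3, 8 of the 23 probe sets were lower than on all 4 other arrays and 6 were higher, against 14.8% and 17.9% of all kept probe sets. Gja1 was lower at 5 of its 6 probe sets, by 1.67-fold (1415801_at), 1.97-fold (1437992_x_at), 2.38-fold (1415800_at), 3.43-fold (1438945_x_at) and 4.60-fold (1438650_x_at). Of all kept probe sets, 0.243% were as low or lower than 1438650_x_at by this measure and 5.20% as low or lower than 1415801_at. Glul was 2.15-fold lower at 1426236_a_at and 1.27-fold higher at 1426235_a_at. Slc1a3 likewise was 1.27-fold higher at 1452031_at and 1.21-fold lower at 1426341_at. These directions of Gja1, Glul and Slc1a3 held after quantile normalization and median centring. Aqp4 was 1.94-fold higher at 1425382_a_at, while its brighter 1434449_at did not set these arrays apart. Clu was higher at 3 of its 4 probe sets as deposited, by 1.29-fold to 1.47-fold, but at 0 after quantile normalization. Aldoc was 1.25-fold lower at 1424714_at, while its brighter 1451461_a_at was not set apart. Gfap, Slc1a2 and Acsbg1 were not set apart. The Actb ratio given above moved with these differences, and its part in them was not tested; where each probe set lies along its transcript was not analysed here.

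**Figure D3:**
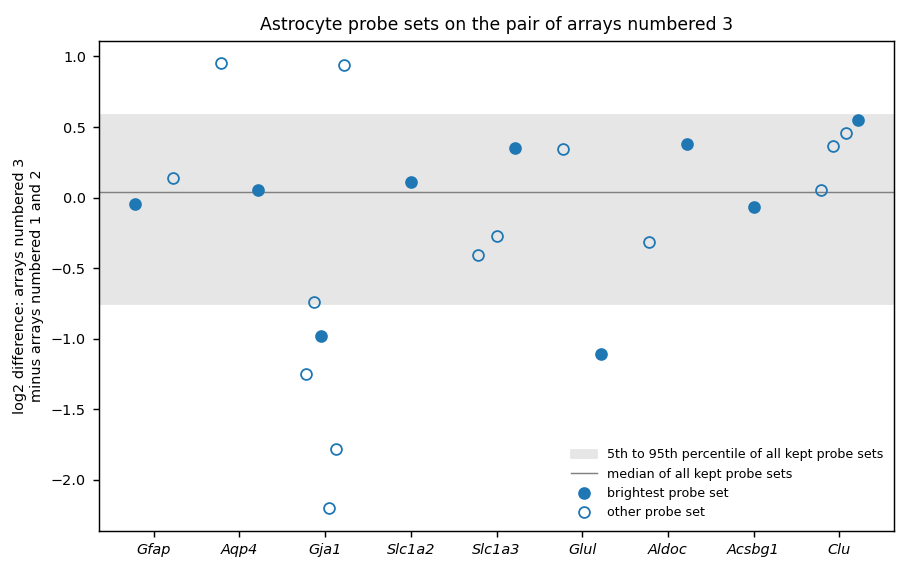
Mean log2 signal on the pair of arrays numbered 3 minus that on the other 4 arrays (vertical axis) for each probe set of the 9 genes (filled for the brightest of a gene), with a grey band from the 5th to the 95th percentile of all kept probe sets (−0.75 to 0.58). Of the Gja1 points 4 lie below the band, and the 2 points of Glul lie on opposite sides of 0.

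The 9 genes did not all share a direction. Each gene was taken at its brightest probe set and centred on its own mean over the 6 arrays. The median deviation was −0.05, −0.10 and 0.05 on Rsk2-KO 1, 2 and 3 and 0.15, 0.08 and 0.10 on WT 1, 2 and 3. These medians were lower on every Rsk2-KO array than on any WT array. The mean deviations overlapped, at 0.04, −0.06 and −0.0750 against 0.110, 0.02 and −0.04, and neither measure was tested. The number of genes above their own mean was 4, 3 and 5 of 9 on Rsk2-KO arrays and 7, 5 and 6 on WT arrays. Of the 9 genes, 4 were higher under the Rsk2-KO label (Gfap, Aqp4, Gja1 and Glul) and 5 lower (Slc1a2, Slc1a3, Aldoc, Clu and Acsbg1). Of the 7 genes with several probe sets, 4 had probe sets of both signs. The genes whose profile lay closest to the mean profile of the 9, by the root mean square difference of centred log2 signals over 6 arrays, were Fbxw11 (0.03), Rtraf (0.03) and Slc23a2 (0.03), against a median of 0.23 over 7858 genes. That mean profile was nearly flat, from −0.0750 on Rsk2-KO 3 to 0.110 on WT 1. Closeness to it can therefore reflect little variation and does not show movement with the 9 genes.

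A wider list of 52 astrocyte-enriched genes, written without the 9, had 43 on the array under 1 symbol and 41 above the filter. Of these, 13 were higher and 28 lower on Rsk2-KO arrays, with a median log2 difference of −0.16, against −0.04 over all 7867 genes, of which 43.6% were above 0. No member of this list passed over all probe sets. The median was −0.26 on the number 1 and 2 arrays and 0.03 on the number 3 pair. Atp1b2, a sodium pump subunit, had 599 ± 25.4 against 774 ± 113 (SD, n = 3 each), giving a log2 difference of −0.36 (SE 0.14, adjusted p = 0.661 in limma). Mfge8, a secreted protein that tags dying cells for uptake, and S1pr1, a sphingosine 1-phosphate receptor, had −0.37 (SE 0.15) and −0.35 (SE 0.14). Gjb6, which encodes connexin 30, the partner of connexin 43 in astrocyte junctions, had 349 ± 42.3 against 275.5 ± 31.6, a log2 difference of 0.34 (SE 0.15). The groups did not overlap at 5 of the 41 genes (12.2%), 1 higher and 4 lower, against 14.2% of all genes (8.76% lower and 5.47% higher). The 5 were these 4, named for their small unadjusted p, and Id4.

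Lists by function gave 0 genes past the adjusted threshold as well. In the glutamate and glutamine cycle, 2 of 9 measured genes were higher and 7 lower (median −0.17). The glutamine carriers Slc38a2 and Slc38a3 differed by 0.29 (SE 0.14) and −0.41 (SE 0.20), and Slc38a3 by 0.03 on the number 3 pair. The aspartate aminotransferase Got1 and the neuronal glutamate transporter Slc1a1 had −0.18 (SE 0.12) and −0.19 (SE 0.13). On the number 1 and 2 arrays Slc1a1 was at −0.30 and on the number 3 pair at 0.02. Slc38a3 was −0.25 without WT 1. Of 10 endfoot, potassium and gap junction genes, 7 were higher and 3 lower (median 0.10, and −0.01 on the number 3 pair). Besides Gjb6 and Atp1b2, the chloride cotransporter Slc12a2 had 0.48 (SE 0.22) and the dystroglycan gene Dag1 −0.25 (SE 0.16). Slc12a2 was 0.28 without WT 2 and 0.73 without WT 3. Dag1 was −0.40 on the number 1 and 2 arrays and 0.06 on the number 3 pair, −0.16 without Rsk2-KO 1 and −0.40 without Rsk2-KO 3. Of 14 glycolysis and lactate genes, 1 was higher, the glucose transporter Slc2a1 at 0.28 (SE 0.15), and 13 were lower (median −0.21, −0.27 on the number 1 and 2 arrays and −0.04 on the number 3 pair). Pfkl, a subunit of phosphofructokinase, had −0.35 (SE 0.15), and glycogen phosphorylase Pygb −0.39 (SE 0.16), or 0.05 on the number 3 pair. Pkm, pyruvate kinase, had −0.26 (SE 0.14), and a second Slc2a1 probe set had the opposite sign (the first was 0.17 without WT 3). Among the 13 lower genes, Aldoa had 2 of 3 other probe sets with the opposite sign, and Pgk1 and Ldhb had 1 each. Lipid transport and fatty acid activation genes were split, 5 higher and 6 lower (median −0.01); Fabp7, a fatty acid binding protein, had 0.41 (SE 0.20) and the lipoprotein gene Apoe −0.36 (SE 0.22). Acsl4, a fatty acid activating enzyme, had 0.42 (SE 0.39) and the cholesterol exporter Abca1 0.28 (SE 0.19). Acsl4 ran from 0.14 without Rsk2-KO 1 to 0.88 without Rsk2-KO 3, while omitting Rsk2-KO 2 gave 0.23, omitting WT 2 gave 0.65 and omitting WT 3 gave 0.16. Abca1 was 0.43 on the number 1 and 2 arrays and −0.02 on the number 3 pair, 0.16 without Rsk2-KO 1 and 0.125 without WT 2. Apoe was −0.53 on the number 1 and 2 arrays and −0.02 on the number 3 pair, and −0.58 without Rsk2-KO 3. With median centring the endfoot list was 6 higher and 4 lower and the lipid list 3 higher and 8 lower.

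Genes that rise in reactive astrocytes gave no common direction. Of 32 on the list, 27 were on the array under 1 symbol, and 13 of these lay below the filter, among them Lcn2, Timp1, Cd44, Cxcl10 and Ptx3. Of the 14 above it, 7 were higher and 7 lower, with a median of 0.01, or −0.03 with median centring. The MHC class I gene H2-D1 differed by −0.51 (SE 0.23), and ceruloplasmin, Cp, by 0.86 (SE 0.46), with 1.40 on the number 1 and 2 arrays and −0.21 on the number 3 pair. Cp was dim, with 37.85 ± 7.21 against 23.9 ± 14.2 (SD, n = 3 each), the WT mean near the filter. Its difference was 0.49 with an offset of 16 and 0.22 with one of 64. Cp was 0.31 without WT 2 and 1.302 without WT 3, and H2-D1 −0.34 without WT 1. The proteoglycan core gene Srgn had 0.34 (SE 0.18), with 0.54 on the number 1 and 2 arrays and −0.06 on the number 3 pair. The intermediate filament gene Nes had 17.1 ± 2.40 against 22.3 ± 1.84 (SD, n = 3 each), near the filter (−0.39, SE 0.27, adjusted p = 0.693).

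Markers of other cell types of the hippocampus were read in the same way. Neuron markers were 5 higher and 7 lower of 12 (median −0.09), with summed signals from 10580 to 11050 on Rsk2-KO arrays and 10460 to 10920 on WT arrays. Oligodendrocyte markers were 5 higher and 3 lower of 8 (median 0.18), with sums of 5119 to 5544 and 4479 to 6139. Microglia markers were 3 higher and 8 lower of 11 (median −0.14). Their sums did not overlap, as given beside Acsbg1, but singly only 2 of the 11 did not. Endothelial markers were 3 higher and 3 lower of 6 (median −0.04), with sums of 438 to 452 and 444 to 489. Oligodendrocyte precursor markers had 2 higher and 3 lower of 5 (median −0.03). Of the choroid plexus and ependymal markers only Ttr and Kl were above the filter, with sums of 536 to 1663 and 703 to 2165, which varied within both labels. Of the stem cell and neuroblast markers (1 higher and 2 lower, all 3 lower after quantile normalization or median centring), Dcx, Nes and Hopx were above the filter, and Hopx, which hippocampal astrocytes also express, differed by −0.49 (SE 0.17, adjusted p = 0.661). Of the blood markers, Alas2 was measured, near the filter (0.10, SE 0.35).

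**Figure D4:**
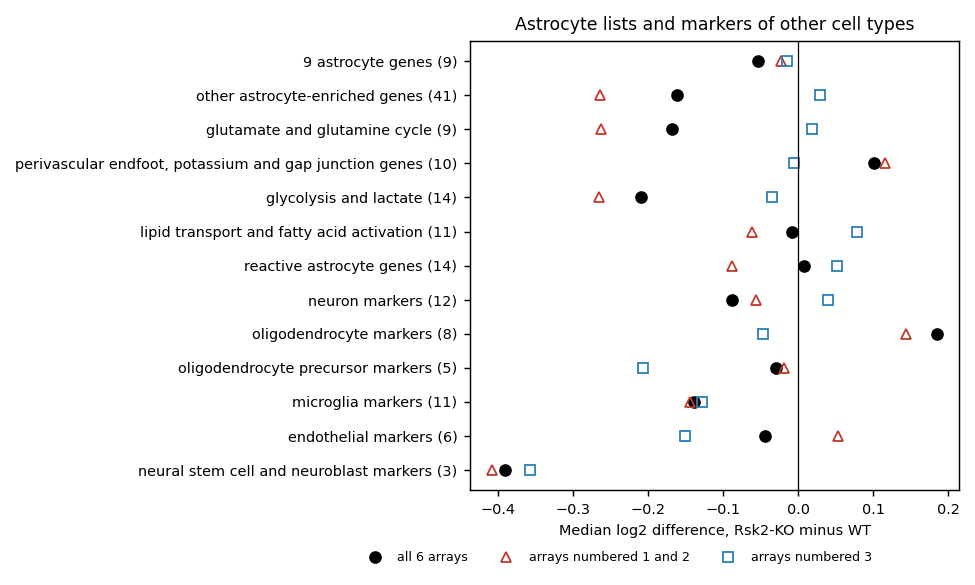
Median log2 difference of Rsk2-KO minus WT (horizontal axis) over the measured genes of each list (rows, number of genes in brackets), for all 6 arrays (black), arrays numbered 1 and 2 (red) and arrays numbered 3 (blue); a median over all 6 arrays need not lie between the other 2. The 9 astrocyte genes lie near 0 in each (−0.05, −0.02 and −0.01), while the wider astrocyte list is at −0.16, −0.26 and 0.03.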

How the data were processed

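Labelled cRNA made from 6 micrograms of total RNA per pool was hybridised to 1-colour Affymetrix arrays, per the labels' protocols. The authors deposited 1 linear intensity per probe set, made with MAS5 per the submitters' processing notes. Its version and settings are not stated there. This algorithm subtracts a background and scales each array, which removes differences in total RNA. Groups and array numbers came from the sample titles.

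Log2 signals were tested as deposited. Probe sets under the 40th percentile of mean log2 signal were left out, and limma 3.58.1 in R 4.3.3 (lmFit, eBayes with an intensity trend, two-sided) was fitted to all 13579 kept, with Benjamini-Hochberg adjustment over all of them. The model was also run on simulated data with independent noise on each array. Those data had no shared shift of the arrays numbered 3, so they do not show how the model behaves under one. Of the 22690 probe sets, 20393 had 1 symbol, 691 several and 1606 none; current symbols came from RefSeq GRCm38.p6. Lists used each gene's brightest kept probe set, and the genes named from a list were up to 4 with the smallest unadjusted p (named here for the astrocyte lists, and for other cell types only where a count was 3 or fewer), plus the 3 genes closest to the members' mean profile. The members and lists were chosen with earlier results of these data known. The number of arrays limits the precision: the median standard error was 0.204 over the members and 0.203 over all. Alternatives covered normalization, offsets of 16 and 64, filters, variance models, array weights, a block on the array number, a term for or exclusion of the arrays numbered 3, probe set choice and leaving out each array.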

Additional observations from a re-analysis of the deposited data

How the results depend on the processing

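No astrocyte probe set passed an adjusted p of 0.05 under any alternative run (lowest 0.0908, Acsbg1 with array weights). Over all kept probe sets, 0 passed, against 1 with the array number as a replicate block and 196 without both arrays numbered 3, where 0 of the astrocyte probe sets passed (lowest adjusted p = 0.107). The block was not taken as a pairing, since the correlation of deviations between same-numbered arrays was 0.0960 for number 1, 0.461 for number 2 and 0.486 for number 3, and the first did not exceed 0.1; not every array correlated best with its own number. With the block the lowest adjusted p of an astrocyte probe set was 0.288, and no call on these genes changed. The median over the astrocyte probe sets ran from −0.14 without WT 3 to 0.0596 without Rsk2-KO 3 and moved by less than the spread between arrays under every other alternative. Over the member probe sets and alternatives, 36 values changed sign, all in differences that did not pass, and 400 did not. Sign changes outside the omission of an array were at Clu 1437689_x_at (0.0804 after quantile normalization, 0.0163 with array weights), Gja1 1415801_at (0.0156 with array weights) and Slc1a3 1426340_at (−0.0066 with median centring); their cause was not tested.

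With 1 array left out, the differences that changed sign ran from −0.16 to 0.78 at Aqp4 1425382_a_at, −0.22 to 0.13 at Clu 1437689_x_at, −0.0116 to 0.16 at Gfap 1426508_at, −0.17 to 0.0629 at Glul 1426235_a_at, −0.11 to 0.63 at Glul 1426236_a_at, −0.12 to 0.23 at Slc1a3 1426340_at, −0.16 to 0.0899 at 1426341_at and −0.21 to 0.0775 at 1452031_at. At Gja1 they ran from −0.25 to 0.58 at 1415800_at, −0.28 to 0.21 at 1415801_at, −0.15 to 0.50 at 1437992_x_at, −0.53 to 0.94 at 1438650_x_at, −0.43 to 0.75 at 1438945_x_at and −1.34 to 0.19 at 1438973_x_at. Acsbg1 kept its sign throughout, from −0.27 with an offset of 64 to −0.41. Its groups did not overlap, so an offset or the omission of 1 array could not have changed that sign. Of the named genes of the other lists, Ttr, Dcx and Alas2 changed sign. Dcx went to −0.0487 after quantile normalization, −0.0251 with median centring, −0.0028 with an offset of 16 and −0.0040 with one of 64, and from −0.31 to 0.32 with 1 array left out. Alas2 went to −0.0324 with array weights and −0.0652 without both arrays numbered 3, and from −0.23 to 0.36 with 1 array left out, and Ttr from −0.20 to 0.64. The others kept their sign under the alternatives run.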
